A study of Mus musculus with 12 samples.

Results

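The enzymes that carry folate-bound carbon units, run the methionine cycle and build purine and pyrimidine nucleotides were followed in Hepa 1-6 cells, a mouse hepatoma line, after knockdown of the nuclear receptor ERRα (gene Esrra), of the chromatin cofactor HCFC1 (gene Hcfc1) or of both. The members were the 33 genes whose symbol in the deposited TPM table (a level corrected for gene length and for library size) matched a fixed list, out of 54532 genes in that table. They fall into 9 folate, 8 methionine, 13 purine and 3 pyrimidine enzymes. The 12 libraries form 4 groups of 3: siERRa, siHCFC1, siERRa+siHCFC1 (here also the combined knockdown) and siC, a scrambled siRNA pool that serves as control. All 4 groups are the same unmodified cell line. Per dish of 6 cm, 400000 cells were plated, received 100 nM siRNA and a further dose after 48 h (200 nM in total), and were harvested at 96 h. The siRNAs were pools, and the labels do not say how the dose was shared in the combined knockdown. The study addresses what ERRα and HCFC1, which it places together on chromatin, do to gene expression. Whether the 3 libraries of a group are separate cultures is not stated. The p-values therefore measure the spread between the libraries at hand, and this spread may be technical.

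In the folate pathway serine gives a carbon unit to tetrahydrofolate, in mitochondria by SHMT2, MTHFD2 and MTHFD1L and in the cytosol by SHMT1 and MTHFD1. These units feed purine rings, thymidylate and the remethylation of homocysteine to methionine, which as S-adenosylmethionine is the methyl donor of the cell. Purines are built on phosphoribosyl pyrophosphate, made by the PRPS enzymes, up to inosine monophosphate, which IMPDH directs to guanine nucleotides; pyrimidines are built by CAD, the mitochondrial enzyme DHODH and UMPS. Differentiated liver is known for a methionine cycle of its own, with MAT1A, GNMT and BHMT, while growing cells use MAT2A.

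Total counts ran from 21370449 to 33197421 per library. Levels per library are given as CPM, the counts scaled to library size. Esrra had 8.65, 16.9 and 10.5 CPM in siERRa and 18.9, 20.5 and 12.5 CPM in the combined knockdown, against 46.4, 42.7 and 52.1 CPM in siC. It fell in siERRa (log2 change -1.97, adjusted p = 0.00702 by edgeR) and in the combined knockdown (-1.44, adjusted p = 0.00478 by edgeR). Hcfc1 reads were at 96.5, 126 and 66.2 CPM in siHCFC1 and 119, 131 and 88.7 CPM in the combined knockdown, against 179, 142 and 198 CPM in siC, and this did not pass the threshold (adjusted p = 0.067 and 0.18 by edgeR). All Hcfc1 values of both knockdowns lay below those of siC. Of 12 hepatocyte markers, 9 averaged at least 1 TPM, with Alb and Afp highest. Serpina1a was listed at 0 in every column, and Ttr and Ahsg averaged 0.38 and 0.22 TPM. Of 6 macrophage and 5 endothelial markers, 4 and 5 averaged under 1 TPM, but the macrophage gene Cd68 averaged 133 TPM. Of 6 stellate cell or fibroblast markers 3 were under 1 TPM, while Dcn averaged 2160 TPM. All 4 cholangiocyte markers were detected. The summed marker TPM of the hepatocyte list ran from 8150 to 10368 in siERRa, 5845 to 7977 in siHCFC1, 7263 to 9066 in the combined knockdown and 4753 to 7850 in siC. That of the fibroblast list ran from 1564 to 2270 in siERRa, 2139 to 3444 in siHCFC1, 2054 to 2484 in the combined knockdown and 1373 to 2167 in siC. That of the macrophage list ran from 109 to 152 in siERRa, 80.5 to 141 in siHCFC1, 68.9 to 104 in the combined knockdown and 167 to 225 in siC, with Clec4f listed at 0. That of the cholangiocyte list ran from 214 to 268 in siERRa, 149 to 180 in siHCFC1, 143 to 207 in the combined knockdown and 201 to 234 in siC. Their part in the results was not tested.

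In siC the salvage enzyme Aprt, which returns adenine to the nucleotide pool, was highest at 334 ± 39.0 TPM (SD, n = 3). It was followed by Ahcy (187 ± 46.3 TPM), which removes S-adenosylhomocysteine, and Hprt (177 ± 41.4 TPM), the salvage enzyme for hypoxanthine and guanine. Next was Paics (162 ± 32.4 TPM), a step of purine ring assembly. The values of Ahcy, Hprt and Paics in siC overlap, so that their order is not set beyond the spread. Shmt2 at 117 ± 11.1 TPM led the folate enzymes and Umps at 31.0 ± 8.16 TPM the pyrimidine enzymes, the last beside Cad at 28.3 ± 4.29 TPM with overlapping values. At the low end, Dhodh had 3.43 ± 0.481 TPM, Gnmt 2.90 ± 0.374 TPM and Aldh1l1, the cytosolic enzyme that burns formyl-tetrahydrofolate, 2.17 ± 0.346 TPM. Of the liver enzymes of the methionine cycle, Bhmt and Mat1a were at or near 0. Bhmt was listed at 0 TPM in all columns and had no row in the count tables, and Mat1a had 2 reads in a siERRa library and 0 in the other 11. Mat2a, the form of growing cells, had 116 ± 11.5 TPM in siC. Reads of 31 of the 33 members passed the filter on low counts and were tested; Mat1a and Bhmt did not.

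**Figure D1:**
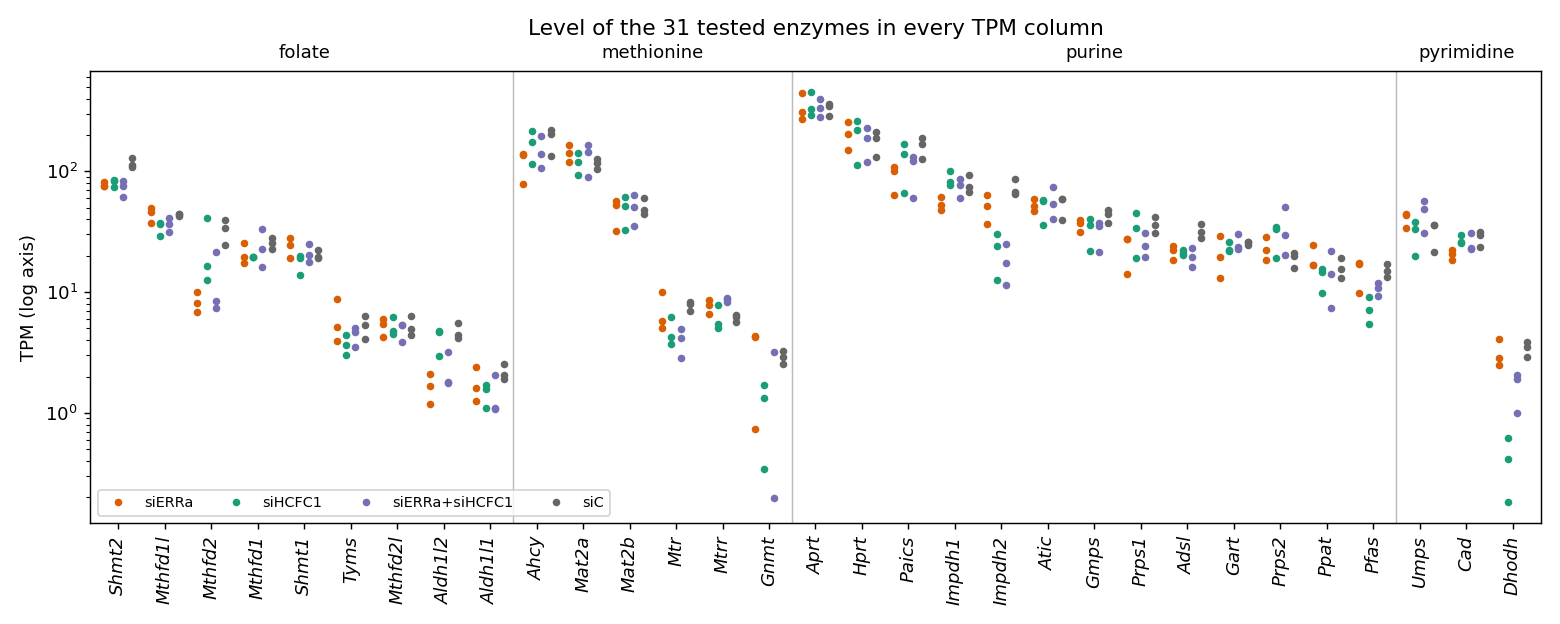
TPM (log axis) of the 31 tested enzymes, ordered within each pathway by their mean in siC; each point is a deposited TPM column, 3 per group, and columns with 0 TPM cannot be drawn. Aprt is highest in siC at 334 TPM on average, and the siHCFC1 points of Impdh2 and Dhodh lie below those of siC.

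By edgeR the knockdown of Esrra moved no member past the threshold (adjusted p under 0.05 over all genes), the knockdown of Hcfc1 lowered 3, and the combined knockdown lowered 2 and raised 1. In siERRa 0 of 31 members were called by edgeR, where 0.438% of the 15965 genes tested were called. At an unadjusted p under 0.05 there were 9 members, where 10.3% of all genes lay under it. Unless another setting is named, edgeR results are those of the main fit, with TMM scaling, 4 group means, all 12 libraries and no block. With the library number as a block edgeR called more members in siERRa, and more of all genes, as given at the end. DESeq2 called 3 (Mthfd2, Aldh1l2 and Shmt2, all lower), where it called 2.48% of all genes, and limma on TPM called 0, where it called 0.138%. The authors' deposited table has 2 members called for siERRa (Mthfd2 and Aldh1l2), 4 for siHCFC1 and 7 for siERRa+siHCFC1. Its share of all genes called was not computed, so these counts have no background to be read against. In siHCFC1 the 3 called members, Impdh2, Dhodh and Pfas, were all lower and make up 9.68% of the members, against 4.22% of all genes called lower and 6.68% called in either direction. In the combined knockdown Impdh2 and Shmt2 were lower and Prps2 higher, which is 6.45% and 3.23% of the members against 4.06% and 2.83% of all genes, and 6.89% of all genes in either direction. Over all genes the calls were 393 higher and 673 lower in siHCFC1 and 452 higher and 648 lower in the combined knockdown; on the TPM scale with limma they were 168 higher and 688 lower, and 250 higher and 695 lower. The median log2 change of the 31 members was -0.07 (siERRa), -0.06 (siHCFC1) and -0.10 (combined knockdown). Over all genes it was 0.01 (siERRa), 0.00 (siHCFC1) and -0.01 (combined knockdown). Counted by groups that do not overlap, 9 members were lower and 2 higher in siERRa (29% and 6.45% of members; 9.16% and 7.17% of all genes), 8 lower and 1 higher in siHCFC1 (25.8% and 3.23%; 15.8% and 11.5%), and 11 lower and 4 higher in the combined knockdown (35.5% and 12.9%; 16.7% and 13.3%). The 3 comparisons share the siC libraries.

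**Figure D2:**
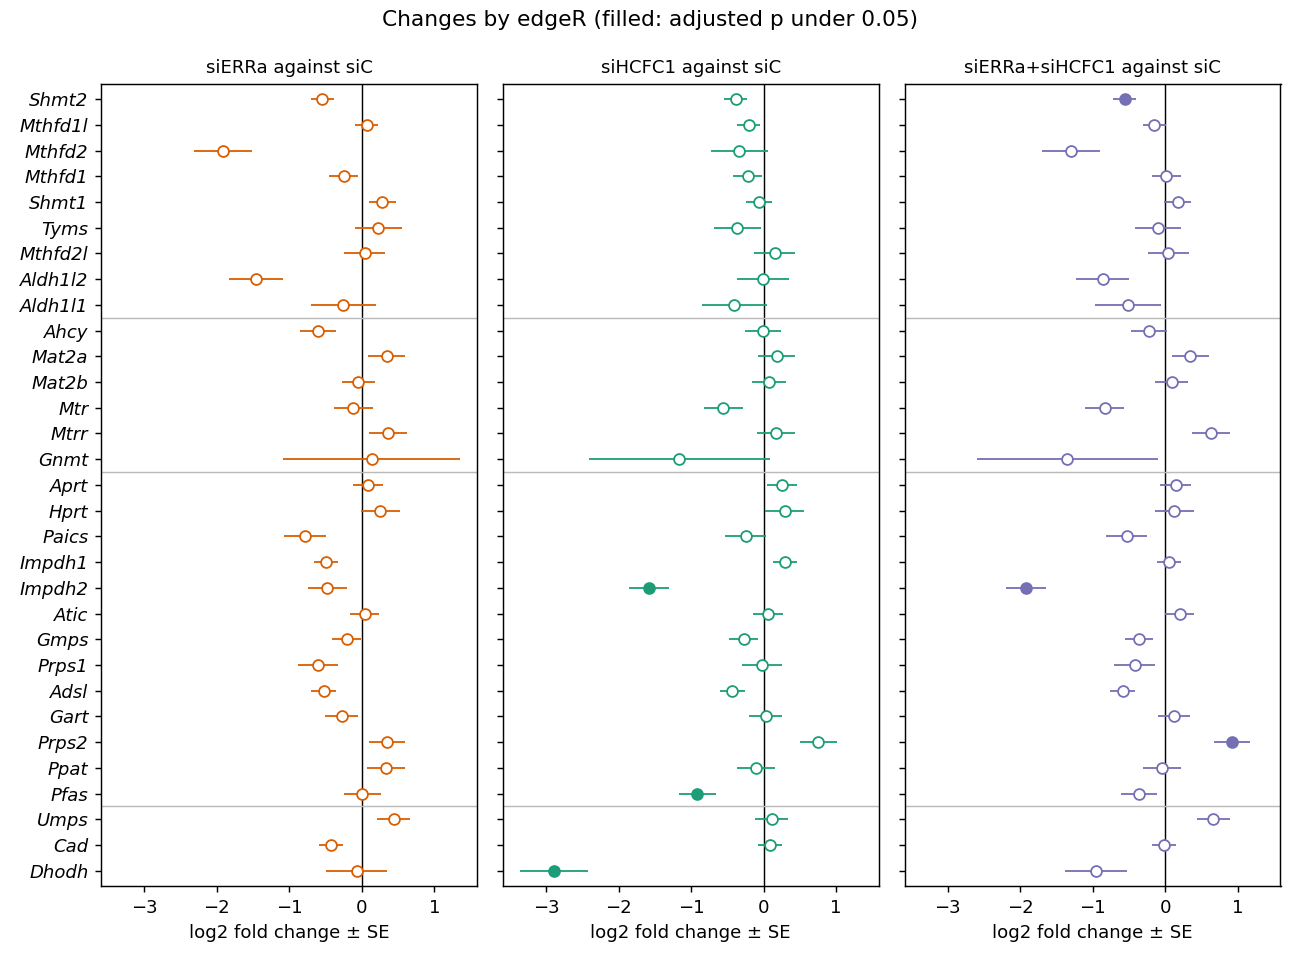
log2 fold change against siC with its SE by edgeR for the 31 tested enzymes for each knockdown group, by pathway; filled points have an adjusted p under 0.05. No point is filled in siERRa, and Dhodh at -2.89 in siHCFC1 is the lowest filled point.

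Among the purine enzymes Impdh2, which catalyses the rate-limiting step of guanine nucleotide synthesis, fell in both groups with siHCFC1. It had 24.8, 15.1 and 30.5 CPM in siHCFC1, 17.7, 14.3 and 23.3 CPM in the combined knockdown and 49.6, 37.4 and 64.2 CPM in siERRa, against 64.7, 64.7 and 80.6 CPM in siC. Every library with siHCFC1 lay below every library without it. The log2 change was -1.58 ± 0.28 (SE) in siHCFC1, a 2.98-fold lower level (adjusted p = 0.00401 by edgeR), and -1.92 ± 0.28 in the combined knockdown, 3.79-fold lower (adjusted p = 0.00137 by edgeR). Both calls held in 14 of 14 alternatives, with log2 changes from -1.80 to -1.32 and from -2.13 to -1.76. In siERRa it was -0.47 ± 0.27 (adjusted p = 0.62 by edgeR). Of the 30-base words in its transcripts 43.4% also occur in Impdh2-ps, an annotated near copy, and reads shared by the pair are uncertain. Impdh2-ps averaged 9.27 CPM in siHCFC1, 11.5 CPM in the combined knockdown and 21.2 CPM in siERRa, against 31.7 CPM in siC. The isoenzyme Impdh1, with which no such word is shared, had 81.4, 76.5 and 101 TPM in siHCFC1 and 74.0, 67.0 and 93.2 TPM in siC, which overlap. Impdh2 made up 14.2% to 23.0% of the summed TPM of the pair in siHCFC1 and 15.9% to 22.7% in the combined knockdown, with 43.4% to 54.6% in siERRa, against 47.8% to 49.0% in siC.

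The promoter window of Impdh2 is shown because its calls in siHCFC1 and in the combined knockdown held under every setting. Windows of 250 bases before and 50 after the annotated start, from RefSeq on GRCm38.p6, were at hand for 29 of the 33 members (31 windows); those of Aldh1l2, Dhodh, Mat1a and Pfas are named only. Capitals mark matches, on either strand, to 4 motifs: TNAAGGTCA, the element bound by ERR receptors; ACTACAA, the first letters of the element bound by ZNF143 and THAP11, DNA-binding partners of HCFC1; CACGTG, the E-box of MYC and related factors; and TGATGNAA, an element of ATF4. Shmt2 and Prps2 are the other called members with a window.
Impdh2 promoter, chr9:108560186-108560485, plus strand: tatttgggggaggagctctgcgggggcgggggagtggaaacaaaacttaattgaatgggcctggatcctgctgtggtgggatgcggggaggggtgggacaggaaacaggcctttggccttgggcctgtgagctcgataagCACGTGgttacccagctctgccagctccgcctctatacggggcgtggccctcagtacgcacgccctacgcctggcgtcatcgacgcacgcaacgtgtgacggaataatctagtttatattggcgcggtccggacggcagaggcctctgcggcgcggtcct
Shmt2 promoter, chr10:127522395-127522694, minus strand: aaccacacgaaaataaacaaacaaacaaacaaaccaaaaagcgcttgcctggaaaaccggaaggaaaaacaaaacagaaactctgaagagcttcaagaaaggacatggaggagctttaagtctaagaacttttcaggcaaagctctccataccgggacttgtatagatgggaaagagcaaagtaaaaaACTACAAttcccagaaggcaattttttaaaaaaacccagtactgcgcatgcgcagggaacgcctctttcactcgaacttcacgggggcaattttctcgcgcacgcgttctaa
Prps2 promoter, chrX:167382700-167382999, minus strand: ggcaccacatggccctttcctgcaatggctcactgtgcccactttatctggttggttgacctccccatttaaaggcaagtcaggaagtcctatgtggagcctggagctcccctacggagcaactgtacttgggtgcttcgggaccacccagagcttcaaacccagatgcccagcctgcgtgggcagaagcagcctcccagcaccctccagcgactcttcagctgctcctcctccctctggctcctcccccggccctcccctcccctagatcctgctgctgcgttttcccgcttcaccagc
In these windows CACGTG begins 110 bases before the RefSeq start of Impdh2, ACTACAA begins 62 bases before that of Shmt2, and Prps2 holds none of the 4. The deposited gene positions start Impdh2 at 108560286, inside its window and ahead of this CACGTG, so by them the match lies within the gene. Among the 29 members CACGTG was in the windows of 4 (Atic, Impdh2, Paics and Tyms) and in 7.15% of all 32851 windows, ACTACAA in 2 (Cad and Shmt2) and in 3.24%, TNAAGGTCA in 1 (Bhmt) and in 1.28%, and TGATGNAA in 1 (Prps1) and in 3.97%. The 2 members with ACTACAA differed in their values: Cad had a log2 change of 0.09 ± 0.17 in siHCFC1, where Shmt2 had -0.39 ± 0.16. A match describes letters and not a bound site.

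**Figure D3:**
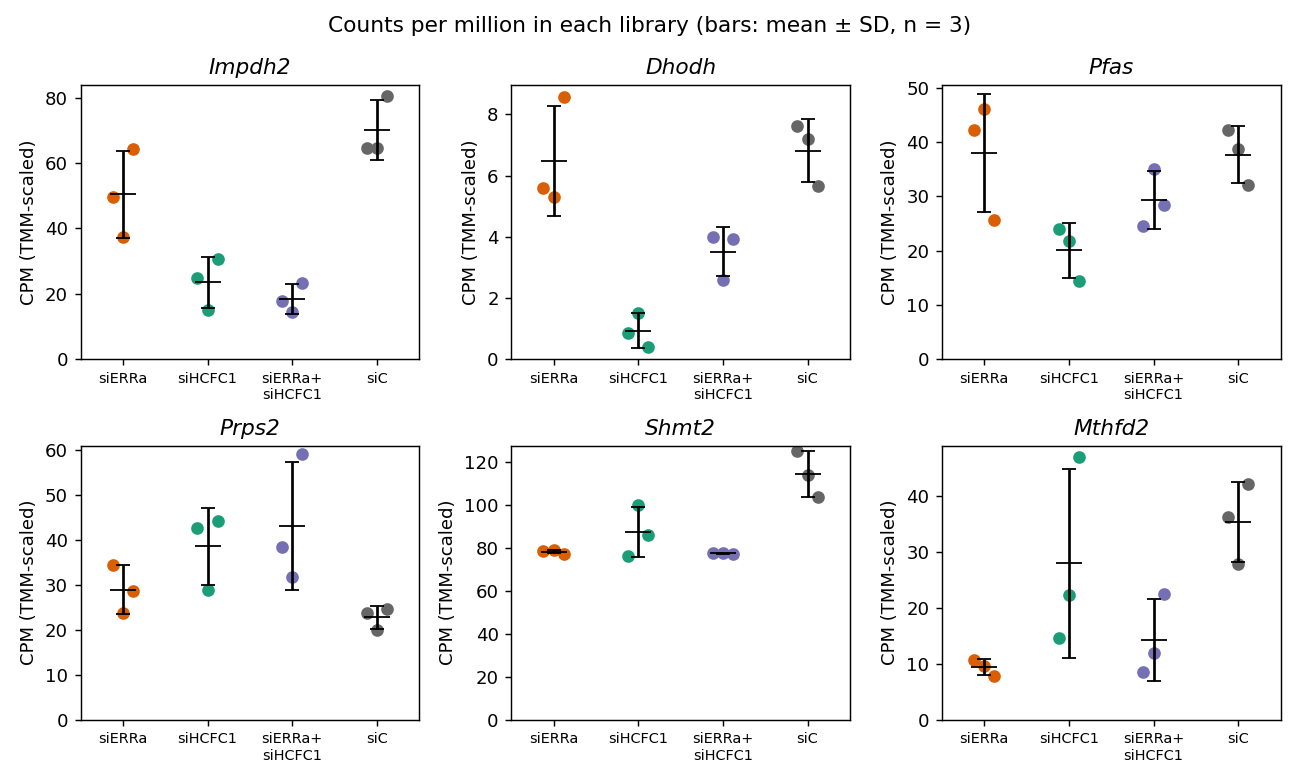
TMM-scaled CPM of the 5 called members and of Mthfd2 in each library, with the mean and SD of 3 libraries per group; all axes start at 0. The Impdh2 points of siHCFC1 and of the combined knockdown lie below all others, and the Dhodh points of siHCFC1 lie below those of the combined knockdown.

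At the first step of the purine pathway, Prps2, 1 of the phosphoribosyl pyrophosphate synthetases, rose in the combined knockdown, with 38.3, 31.8 and 59.0 CPM there, 34.5, 23.7 and 28.6 CPM in siERRa and 42.6, 28.8 and 44.1 CPM in siHCFC1, against 23.7, 19.9 and 24.7 CPM in siC. All libraries of siHCFC1 and of the combined knockdown lay above siC, while siERRa overlapped it. The log2 change was 0.92 ± 0.25 in the combined knockdown, 1.89-fold higher (adjusted p = 0.0412 by edgeR), and 0.76 ± 0.25 in siHCFC1 (adjusted p = 0.0889 by edgeR). DESeq2 called Prps2 in siHCFC1 (0.80, adjusted p = 0.0268), as did the authors' deposited table (0.79, adjusted p = 0.0256). The edgeR call in the combined knockdown held in 7 of 14 alternatives and in 1 of 6 that left out a library. The adjusted p ran from 0.000448 to 0.267 over the alternatives. Its isoenzyme Prps1 was not called by the main edgeR fit, and 1 of 14 alternatives called it in siERRa. It had 16.9, 9.36 and 18.2 CPM in siERRa, 22.6, 14.7 and 29.4 CPM in siHCFC1 and 16.1, 16.0 and 18.4 CPM in the combined knockdown, against 22.3, 19.9 and 25.4 CPM in siC. Its values lay below siC in siERRa (log2 change -0.60 ± 0.28, adjusted p = 0.48 by edgeR) and in the combined knockdown (-0.42 ± 0.28, adjusted p = 0.43 by edgeR). A share of 19.1% of its words also occurs in Prps1l3. Prps2 made up 44.6% to 56.6% of the TPM of the pair in siERRa, 43.6% to 50.2% in siHCFC1 and 50.6% to 62.3% in the combined knockdown, against 33.4% to 35.3% in siC. No column of the 3 knockdown groups reached down to the siC range.

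Pfas, which adds the third nitrogen of the purine ring, fell in siHCFC1. It had 24.0, 21.8 and 14.3 CPM there, 24.5, 35.1 and 28.4 CPM in the combined knockdown and 42.2, 46.1 and 25.7 CPM in siERRa, against 42.3, 38.8 and 32.1 CPM in siC. The siHCFC1 values lay below siC, whereas those of the other groups overlapped it. The log2 change of -0.91 ± 0.26 in siHCFC1 is 1.89-fold lower (adjusted p = 0.0469 by edgeR), and the call was lost when any of the 6 libraries compared was left out (adjusted p from 0.0693 to 0.188). The other ring-building enzymes were not called by the main edgeR fit in any comparison. Adsl, used in ring assembly and again in making adenylate, had 41.9, 34.6 and 41.3 CPM in siERRa, 39.3, 49.0 and 37.6 CPM in siHCFC1 and 36.4, 37.3 and 39.3 CPM in the combined knockdown, against 55.2, 51.8 and 62.7 CPM in siC. All 9 knockdown libraries lay below siC, and the adjusted p was 0.054 in the combined knockdown by edgeR. DESeq2 called it there (log2 change -0.54, adjusted p = 0.0203), as did the authors' deposited table (-0.55, adjusted p = 0.0403). Paics averaged 92.2 ± 22.3 CPM in siERRa, 133 ± 47.3 CPM in siHCFC1 and 109 ± 28.4 CPM in the combined knockdown, against 159 ± 26.8 CPM in siC (SD, n = 3). Its values lay below siC in siERRa (log2 change -0.78 ± 0.29, adjusted p = 0.33 by edgeR) and in the combined knockdown (-0.53 ± 0.29, adjusted p = 0.31 by edgeR). In each of these 1 of 14 alternatives called Paics. Ppat, the amidotransferase that commits ribose to the pathway, averaged 27.6 ± 4.91 CPM in siERRa, 20.4 ± 3.11 CPM in siHCFC1 and 21.2 ± 7.98 CPM in the combined knockdown, against 21.9 ± 3.49 CPM in siC. It lies head to head with Paics, with 272 exon bases shared on opposite strands, and reads in the shared bases cannot be told apart without strand. Gart, Atic and Gmps had log2 changes between -0.36 and 0.20 in the 3 knockdown groups, and 1 of 14 alternatives called Gmps in the combined knockdown.

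Of the salvage enzymes, Aprt had 154, 145 and 236 CPM in siERRa, 176, 185 and 242 CPM in siHCFC1 and 179, 184 and 194 CPM in the combined knockdown, against 174, 152 and 179 CPM in siC. Hprt averaged 84.9 ± 22.6 CPM in siERRa, 87.0 ± 28.3 CPM in siHCFC1 and 77.5 ± 13.7 CPM in the combined knockdown, against 71.2 ± 14.5 CPM in siC. Neither was called by edgeR in a comparison, and the log2 changes lay between 0.08 and 0.29.

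Among the pyrimidine enzymes Dhodh, the mitochondrial dehydrogenase that oxidises dihydroorotate, had the lowest log2 change of the family in siHCFC1. It had 0.86, 1.52 and 0.38 CPM in siHCFC1 (18, 36 and 11 reads), 4.00, 2.58 and 3.92 CPM in the combined knockdown and 5.60, 5.30 and 8.55 CPM in siERRa, against 7.60, 7.18 and 5.64 CPM in siC (178, 207 and 141 reads). The siHCFC1 libraries lay below all others, and those of the combined knockdown between them and siC. The log2 change was -2.89 ± 0.47 in siHCFC1, 7.43-fold lower (adjusted p = 0.00254 by edgeR). The call held in 14 of 14 alternatives, with log2 changes from -3.46 (without library 2 of siHCFC1) to -2.14 (limma on TPM). In the combined knockdown it was -0.96 ± 0.43 (adjusted p = 0.21 by edgeR), called in 0 of 14 alternatives. Umps, which makes uridine monophosphate, had 47.6, 39.6 and 49.5 CPM in siERRa, 38.6, 26.8 and 43.5 CPM in siHCFC1 and 56.2, 43.5 and 59.7 CPM in the combined knockdown, against 38.5, 24.5 and 37.9 CPM in siC. Its values lay above siC in siERRa and in the combined knockdown, where the log2 change was 0.66 ± 0.23 (adjusted p = 0.10 by edgeR). DESeq2 called it there (0.70, adjusted p = 0.0329), as did the authors' deposited table (0.70, adjusted p = 0.0344). Cad, the multifunctional enzyme of the first steps, averaged 54.1 ± 3.85 CPM in siERRa, 76.9 ± 5.28 CPM in siHCFC1 and 71.6 ± 8.03 CPM in the combined knockdown, against 72.3 ± 8.64 CPM in siC. It was not called by the main edgeR fit, and 1 of 14 alternatives called it in siERRa.

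In the folate pathway Shmt2, the mitochondrial serine hydroxymethyltransferase, was lower in every knockdown library. It had 78.5, 79.1 and 77.3 CPM in siERRa, 76.4, 99.8 and 86.1 CPM in siHCFC1 and 77.5, 77.6 and 77.3 CPM in the combined knockdown, against 125, 114 and 104 CPM in siC. No group overlapped siC. The combined knockdown passed the threshold (log2 change -0.56 ± 0.16, 1.47-fold lower, adjusted p = 0.0494 by edgeR). The other groups, siERRa at -0.54 ± 0.16 (adjusted p = 0.18 by edgeR) and siHCFC1 at -0.39 ± 0.16 (adjusted p = 0.18 by edgeR) did not. The call was lost when any of the 6 libraries compared was left out (adjusted p from 0.104 to 0.228).

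Mthfd2, the next mitochondrial enzyme, had the lowest log2 change of the family in siERRa without passing the threshold. It is given in full outside the rule for named genes, chosen after its values were seen. It had 10.7, 9.57 and 7.89 CPM in siERRa, 14.7, 22.3 and 47.0 CPM in siHCFC1 and 8.51, 11.9 and 22.6 CPM in the combined knockdown, against 36.3, 27.8 and 42.1 CPM in siC. All siERRa and combined libraries lay below siC, and siHCFC1 spanned it. The log2 change in siERRa was -1.91 ± 0.41, 3.77-fold lower (adjusted p = 0.056 by edgeR), and 4 of 14 alternatives called it. The authors' deposited table lists -1.89 with an adjusted p of 5.46e-09. In the combined knockdown it was -1.30 ± 0.40 (adjusted p = 0.064 by edgeR), with 6 of 14 alternatives calling it. Aldh1l2, the mitochondrial formyl-tetrahydrofolate dehydrogenase, averaged 4.02 ± 0.972 CPM in siERRa, 10.9 ± 3.28 CPM in siHCFC1 and 6.08 ± 3.22 CPM in the combined knockdown, against 11.0 ± 1.52 CPM in siC. Its log2 change in siERRa was -1.46 ± 0.37 (adjusted p = 0.12 by edgeR), and the authors' deposited table lists -1.43 with an adjusted p of 0.00505. Of its exon bases 14.1% overlap D10Wsu102e on the opposite strand, so part of these reads cannot be told apart. Mthfd1l, the mitochondrial ligase that releases formate, did not follow them in siERRa, where its log2 change was 0.07 ± 0.15 and its values overlapped siC. It was -0.21 ± 0.15 in siHCFC1 and -0.15 ± 0.15 in the combined knockdown, with all values of both groups below siC, and was not called by edgeR. The cytosolic enzymes Shmt1, Mthfd1 and Aldh1l1, the second mitochondrial dehydrogenase Mthfd2l and the thymidylate synthase Tyms were not called by edgeR in any comparison, with log2 changes from -0.51 to 0.28 in the 3 knockdown groups.

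Summed over the 5 mitochondrial folate enzymes (Shmt2, Mthfd2, Mthfd1l, Mthfd2l and Aldh1l2), the level was 137 ± 10.5 TPM in siERRa, 147 ± 22.0 TPM in siHCFC1 and 129 ± 21.5 TPM in the combined knockdown, against 204 ± 13.6 TPM in siC (SD, n = 3). The lowest siC column, at 192 TPM, lay above the highest knockdown column, at 172 TPM. Shmt2 is the largest part of this sum, with 117 TPM in siC and 77.7 TPM in siERRa. Mthfd2 had 32.6 TPM in siC and 8.34 TPM in siERRa, while Mthfd1l had 43.9 and 44.5 TPM. Relative to counts, log2 changes of all genes on the TPM scale shifted by a median of -0.06 (siERRa), -0.16 (siHCFC1) and -0.13 (combined knockdown). The 3 cytosolic enzymes (Shmt1, Mthfd1 and Aldh1l1, with Tyms left out) summed to 46.5 ± 8.06 TPM in siERRa, 38.8 ± 3.25 TPM in siHCFC1 and 46.5 ± 12.9 TPM in the combined knockdown, against 48.0 ± 4.03 TPM in siC. The mitochondrial share of the 8 enzymes was 73.0% to 77.4% in siERRa, 76.7% to 80.7% in siHCFC1 and 71.5% to 75.7% in the combined knockdown, against 80.7% to 81.3% in siC. With 3 columns a group an exact two-sided permutation test cannot give a p below 0.1, and these shares are a description.

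**Figure D4:**
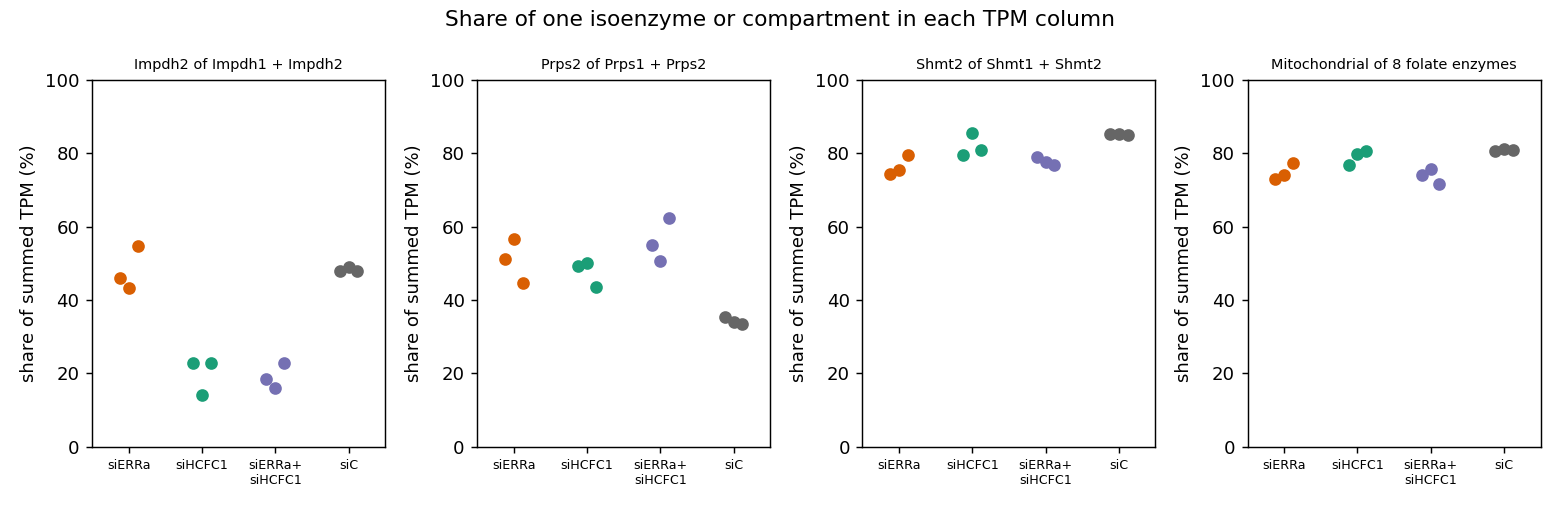
Share (%) of summed TPM held by Impdh2, Prps2 and Shmt2 within their isoenzyme pairs and by the mitochondrial enzymes among 8 folate enzymes; each point is a TPM column, 3 per group. Impdh2 lies at 14.2% to 23.0% in siHCFC1 against 47.8% to 49.0% in siC, and Prps2 lies above siC in all 9 knockdown columns.

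No enzyme of the methionine cycle was called by the main edgeR fit or by DESeq2 in a comparison. Ahcy, the highest of them, had 122, 73.7 and 126 CPM in siERRa, 162, 127 and 197 CPM in siHCFC1 and 129, 122 and 166 CPM in the combined knockdown, against 177, 123 and 189 CPM in siC. The ranges of all 3 knockdown groups overlapped that of siC, and 68.9% of the words of Ahcy are shared with the near copy Gm4737, which leaves its counts uncertain. Mtr, the synthase that remethylates homocysteine, averaged 19.0 ± 6.64 CPM in siERRa, 14.1 ± 3.68 CPM in siHCFC1 and 11.6 ± 2.16 CPM in the combined knockdown, against 20.7 ± 1.16 CPM in siC. The log2 change in the combined knockdown was -0.83 ± 0.27 (adjusted p = 0.080 by edgeR), and the authors' deposited table lists -0.80 with an adjusted p of 0.0221. Mtrr, the reductase that keeps Mtr active, had a log2 change of 0.64 ± 0.26 there (adjusted p = 0.17 by edgeR), with all its values above siC. Of 14 alternatives, 2 called Mtr and 1 called Mtrr in the combined knockdown. In siHCFC1 1 called Mtr, and in siERRa 1 called Ahcy. For the combined knockdown against siERRa 1 called Mtr and 1 called Ahcy. Mat2a and its regulatory partner Mat2b had log2 changes from -0.05 to 0.35 in the 3 knockdown groups, and 11.3% of the exon bases of Mat2a overlap Particl on the opposite strand. Gnmt, the glycine methyltransferase of liver, rested on 0 to 60 reads per library, which leaves an SE of 1.22 or more on its log2 changes.

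The combined knockdown was also set against each single knockdown. Against siERRa, Impdh2 fell. It had 17.7, 14.3 and 23.3 CPM in the combined knockdown, against 49.6, 37.4 and 64.2 CPM in siERRa, which do not overlap. The log2 change was -1.45 ± 0.28, 2.73-fold lower (adjusted p = 0.0121 by edgeR). This is 1 of 31 members called, where 3.24% of all genes were called and 1.84% were called lower. Over all genes 225 were higher and 293 lower there, and 109 higher and 247 lower with limma on TPM. DESeq2, which called 7.46% of all genes there, called Impdh2 and also Impdh1, which was higher (log2 change 0.55, adjusted p = 0.00950). The authors' deposited table did not call Impdh1 there (0.55, adjusted p = 0.112). By edgeR the log2 change of Impdh1 was 0.54 ± 0.17 (adjusted p = 0.0997), with 83.8, 80.7 and 84.9 CPM in the combined knockdown, against 62.2, 52.3 and 57.1 CPM in siERRa. The Impdh2 call ended when the 4 libraries numbered 3 were left out together (adjusted p = 0.0745 by edgeR). Against siHCFC1 the combined knockdown had 0 members called by edgeR and 0 by limma, with 0.00626% of all genes called. At this comparison 5 members had an unadjusted p under 0.05, as had 7.26% of all genes. DESeq2, which called 0.57% of all genes, called Dhodh (log2 change 1.93, adjusted p = 0.0125). The authors' deposited table did not call Dhodh there (1.92, adjusted p = 0.437). Dhodh had 4.00, 2.58 and 3.92 CPM in the combined knockdown against 0.86, 1.52 and 0.38 CPM in siHCFC1, which do not overlap, and edgeR gave 1.94 ± 0.46 (adjusted p = 0.25). A departure from additivity on the log2 scale was called for 0 members by edgeR, DESeq2 and limma, and for 0% of all genes by edgeR and 0.0313% by DESeq2. For 1 member, Dhodh, it had an unadjusted p under 0.05, as for 2.75% of all genes, with a departure of 2.01 ± 0.62 (adjusted p = 1 by edgeR). For Impdh2 it was 0.13 ± 0.38 and for Mthfd2 0.95 ± 0.56.

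**Figure D5:**
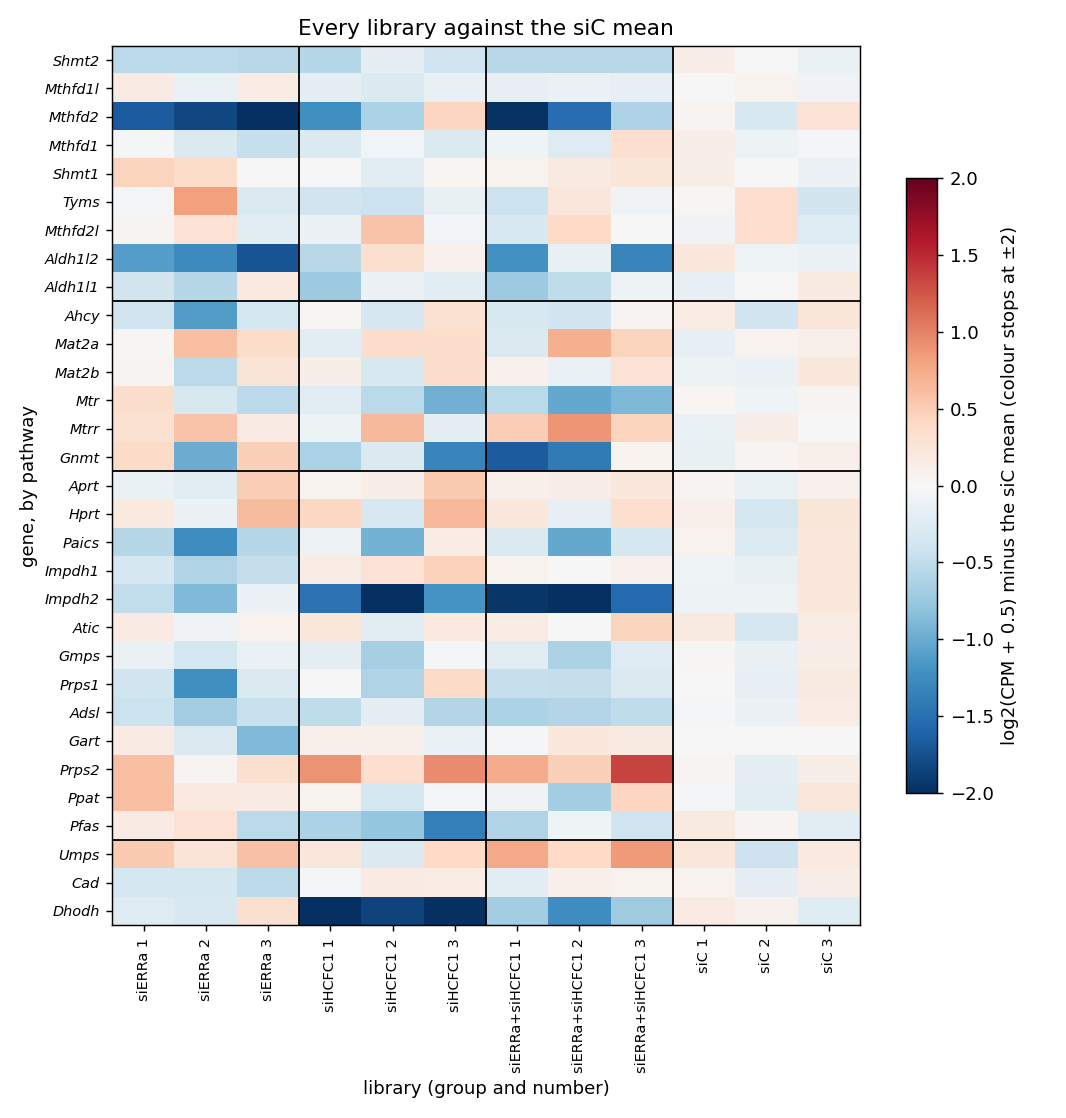
log2(CPM + 0.5) of each library minus the siC mean for the 31 tested enzymes (rows, by pathway) in the 12 libraries (columns, by group and library number); the colour scale stops at ±2. Impdh2 is low in both groups with siHCFC1, and Dhodh is lowest in siHCFC1. Mthfd2 and Aldh1l2 have their lowest group mean in siERRa, where their libraries overlap those of the combined knockdown. Paics and Ahcy are lowest in library 2 of each group.

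Libraries with the same number shared part of their pattern. Library 2 was the lowest of its group in all 4 groups for 9 of 31 members (Ahcy, Atic, Gmps, Hprt, Mat2b, Paics, Prps1, Prps2 and Umps; 29.0%), against 16.4% of all genes, and it was the highest in all 4 groups for Mthfd2l and Mtrr (6.45% against 16.3%). Library 3 was the highest in all 4 groups for 6 members (Ahcy, Aprt, Hprt, Impdh2, Mat2b and Prps1; 19.4%), against 9.19% of all genes. Mitochondrially encoded genes took 6.54% to 14.5% of the counts of libraries numbered 2, 4.56% to 6.72% of those numbered 1 and 2.37% to 3.59% of those numbered 3; their part in these patterns was not tested. When the libraries numbered 2 were left out (a setting added once the data had been seen), the Impdh2, Dhodh and Prps2 calls held and those of Pfas (adjusted p = 0.0920 by edgeR) and Shmt2 (adjusted p = 0.0804 by edgeR) ended.

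Genes next to these pathways were read from lists written alongside the members. Of 15 tested genes of folate supply and other folate enzymes, 2 were lower in siHCFC1 and in the combined knockdown and 0 higher. Over all genes 4.22% were called lower and 2.46% higher in siHCFC1, and 4.06% and 2.83% in the combined knockdown. Fpgs, which retains folate in the cell by adding glutamates, had 14.2 ± 1.02 CPM in siHCFC1 and 11.7 ± 1.85 CPM in the combined knockdown, against 23.2 ± 2.18 CPM in siC. Dld, the shared dehydrogenase of the glycine cleavage system, had 48.1 ± 2.72 CPM in siHCFC1 and 48.5 ± 4.83 CPM in the combined knockdown, against 76.4 ± 8.14 CPM in siC. Ggh, which removes folate glutamates, was lower in the combined knockdown than in siERRa (25.8 ± 8.05 CPM in the combined knockdown, against 60.4 ± 6.44 CPM in siERRa; log2 change -1.23 ± 0.24, adjusted p = 0.014 by edgeR). None of 6 serine and glycine synthesis genes was called in a comparison by edgeR; 3 had an unadjusted p under 0.05 in siERRa, against 10.3% of all genes, and 5 of 6 were below 0 with a median of -0.48.

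Of 16 tested genes of methionine salvage, transsulfuration and polyamine synthesis, 1 was higher in siERRa, 1 higher and 2 lower in siHCFC1, and 1 higher and 2 lower in the combined knockdown. Over all genes 0.138% were called higher and 0.301% lower in siERRa, 2.46% and 4.22% in siHCFC1, and 2.83% and 4.06% in the combined knockdown. Apip, of the salvage pathway, rose in siERRa (18.5 ± 3.60 CPM, against 6.60 ± 1.25 CPM in siC; log2 change 1.48 ± 0.26, adjusted p = 0.026 by edgeR) and in the combined knockdown (13.0 ± 1.64 CPM). The spermidine synthase Srm fell to 23.1 ± 6.83 CPM in siHCFC1 and 22.3 ± 5.26 CPM in the combined knockdown, against 46.3 ± 12.1 CPM in siC. Cbs, the first enzyme of transsulfuration, fell to 2.05 ± 0.319 CPM in siHCFC1 and 2.18 ± 0.457 CPM in the combined knockdown, against 5.79 ± 1.96 CPM in siC. The spermine synthase Sms rose to 51.5 ± 2.62 CPM in siHCFC1, against 31.1 ± 1.46 CPM in siC.

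Of 20 tested genes of purine interconversion, salvage and breakdown, 2 were higher in siHCFC1, 1 in the combined knockdown and 0 lower. For this list and the pyrimidine list below, 2.46% of all genes were called higher and 4.22% lower in siHCFC1. In the combined knockdown 2.83% and 4.06% were. Xdh, which oxidises hypoxanthine and xanthine to urate, had 79.5 ± 6.04 CPM in siHCFC1 and 79.9 ± 9.98 CPM in the combined knockdown, against 37.9 ± 10.1 CPM in siC (log2 change 1.07 ± 0.22, adjusted p = 0.011, and 1.08 ± 0.22, adjusted p = 0.010, by edgeR), and both calls held when each library was left out in turn. It was also higher in the combined knockdown than in siERRa, at 42.6 ± 9.95 CPM in siERRa. The AMP deaminase Ampd2 had 168 ± 41.0 CPM in siHCFC1, against 91.1 ± 22.2 CPM in siC. Of 26 pyrimidine and deoxynucleotide enzymes, the uridine phosphorylase Upp1 was higher in siHCFC1 and in the combined knockdown (9.14 ± 2.92 CPM in siHCFC1 and 9.00 ± 0.932 CPM in the combined knockdown, against 3.89 ± 0.749 CPM in siC) and the mitochondrial thymidine kinase Tk2 lower in siHCFC1 (8.56 ± 2.32 CPM, against 18.3 ± 1.61 CPM in siC).

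Nucleotide synthesis serves DNA replication, so 21 genes of S phase were read beside it. They had 1 called lower in siERRa (Mcm6), 4 in siHCFC1 (Mcm5, Prim1, E2f1 and Lig1) and 3 in the combined knockdown (Mcm6, Prim1 and E2f1), and 0 called higher in each. As background, the share of all genes called lower was 0.301% (siERRa), 4.22% (siHCFC1) and 4.06% (combined knockdown). The share called higher was 0.138% (siERRa), 2.46% (siHCFC1) and 2.83% (combined knockdown). The median log2 change of the 21 genes was -0.11 (siERRa), -0.33 (siHCFC1) and -0.33 (combined knockdown). Over all genes the medians were 0.01, 0.00 and -0.01 in that order. Prim1, a primase subunit, had 5.65 ± 3.22 CPM in siHCFC1 and 10.7 ± 2.03 CPM in the combined knockdown, against 24.8 ± 2.75 CPM in siC. The summed TPM of the 21 genes ran from 691 to 978 in siERRa, 536 to 831 in siHCFC1 and 521 to 932 in the combined knockdown, against 903 to 1089 in siC. When each library was left out in turn, the calls of Xdh against siC, of Prim1 in siHCFC1 and of Mcm6 in the combined knockdown held each time. Every other call named from these lists ended in at least 1 of those fits. The part of cell cycling in the members' values was not tested, and in bulk libraries fewer cells in a state and less RNA per cell cannot be told apart.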

How the data were processed

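Per the labels' protocols, total RNA of 12 Hepa 1-6 samples was treated with DNase; the library kit leaves strand unmarked. The submitters' processing notes name HISAT2 2.0.5, featureCounts 1.5.0-p3, DESeq2 1.20.0 and the mm10 build. The authors deposited read counts per gene and library in 5 comparison tables, with their log2 fold changes and adjusted p-values, and a table of TPM values; 60 further value columns were not used. The count tables were merged into 24326 genes (377781 shared cells compared, 0 differed; 5451 blanks set to 0). Of the TPM columns, those numbered 4 were placed by group, so TPM is given by group and CPM by library. Libraries held 21370449 to 33197421 counts, and no library was a copy of another.

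The test was edgeR's quasi-likelihood F test (edgeR 4.0.16, R 4.3.3, TMM scaling, filterByExpr) on the counts, in a model of 4 group means over all 12 libraries with 8 residual degrees of freedom, with Benjamini-Hochberg adjustment over 15965 genes and a threshold of 0.05. CPM values are TMM-scaled. The SE is the log2 change divided by the square root of F. Alternatives were RLE scaling, DESeq2 1.42.0, no filter, the compared groups alone, limma 3.58.1 on log2(TPM + 0.5), a replicate block and left-out libraries; the fit was tested on simulated data. Near copies are shares of 30-base words between GENCODE M21 transcripts, whose gene positions equal those of the files for all 33 members. Members called in a comparison, and the highest of each pathway in siC, are given per library. Mthfd2, Adsl, Prps1 and Impdh1 are given so outside this rule, with their results known. Members, lists and tests were chosen with earlier results of these data known.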

Additional observations from a re-analysis of the deposited data

How the results depend on the processing

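The calls of Impdh2 in siHCFC1 and in the combined knockdown and of Dhodh in siHCFC1 held under every alternative run, and none of the 7 member calls changed sign. The count of members called in siERRa, 0, became 3 with DESeq2 (2.48% of all genes called), 2 with no filter on low counts (1.29%) and 1 with the compared groups alone (0.179%), and stayed at 0 when single libraries were left out. In siHCFC1 it was 3, and became 4 with DESeq2 (11.6%) and with no filter on low counts (6.49%). It was 2 with RLE scaling (1004 of 15965 genes called), with the compared groups alone (5.78%) and without any single library. In the combined knockdown it was 3, became 6 with DESeq2 (11.9%) and 5 with the compared groups alone (9.8%), and ran from 1 to 3 over left-out libraries. Against siERRa the combined count, 1, became 2 with DESeq2 (7.46%), 0 without the libraries numbered 3 (0.384%), and was 1 without any single library; against siHCFC1 it was 0, and 1 with DESeq2 (0.57%) and with no filter on low counts (0.337%). On the TPM scale the median of the members in siHCFC1 was -0.22 in place of -0.06, beyond the SD of 0.12 between libraries, while all genes shifted by -0.16 (-0.13 in the combined knockdown). The causes of these moves were not tested. Depth limits Dhodh and Gnmt, which rest on few reads.

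Libraries carry numbers 1 to 3 in each group, and no label says what a number shares. Deviations from the group means correlated at 0.03 to 0.37 between same-numbered libraries and at -0.33 to 0.07 between the others. Of the pairs of number 1, 0 of 6 lay over 0.1, and by this rule the numbers were not taken to pair the samples. The rule does not show that the numbers share nothing, and 12 of 12 libraries correlated best with one of their own number. With the number as a replicate block, 11 members were called in siERRa (10.2% of all genes), 7 in siHCFC1 (24.9%), 11 in the combined knockdown (25.5%), 6 in it against siERRa (20%), 2 against siHCFC1 (3.52%) and 0 for the departure (0.144%).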
